A study of Mus musculus with 6 samples.

Results

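The long intergenic noncoding RNA (lincRNA) probes are the features of a mouse gene expression array that were designed not on a known transcript but on a stretch of genome. They were picked by their systematic name in the array files. A probe was taken if it was no control and its name began with the word lincRNA or with a genomic interval, mostly with a strand. This gave 16194 of the 55681 probes that were no controls, against 26732 probes named by an NM accession (a protein-coding transcript) and 1559 named by an NR accession (a noncoding transcript). Of the 16194, 16193 were usable on all 6 arrays and are described here. They stand for 3543 intervals on the mm9 (NCBI37) build, written here as in the file names with F or R for the strand, and for 4610 combinations of interval and strand with 1 to 10 probes each (median 3). Intervals ran from 62 to 7.13e+06 bases (median 7304). There were 8170 probes to the F strand, 8010 to the R strand and 13 with no strand in the name. No gene symbol was looked up for these intervals, so a member is called here by its interval, strand and probe identifier and no function is assigned to it.

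LincRNAs are transcripts longer than the small RNA classes that lie between protein-coding genes and have no long open reading frame. Many were first mapped as genome intervals that carry histone marks of a promoter followed by marks of transcription, which is why an array can hold probes to both strands of an interval before the transcript is known. As a class they are less abundant and more restricted to certain tissues than messenger RNAs, and a few of them act in chromatin regulation, splicing or as hosts of small RNAs.

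The study asked how skeletal muscle changes with age. RNA was taken from the gastrocnemius, a calf muscle of mostly fast fibres, of male C57BL/6J mice with no other genetic change or treatment named in the sources used here. The 2 groups were young mice at 13 weeks (n = 3) and aged mice at 26 months (n = 3), with 1 Cy3-labelled single-colour array for each mouse. Levels below are the log2 of the processed signal minus the 75th percentile of the array, so that 0 is the 75th percentile of the probes of an array, and a fold change is aged over young mice. A probe counts as detected where the scanner software called it well above background.

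All 6 arrays were on 1 slide, with the 3 young mice and aged mouse 1 in row 1 of the slide and aged mice 2 and 3 in row 2. Aged mouse 1 stood apart: the mean net signal of its negative controls was 61.3, against 51.9 to 55.1 on the other arrays. The 8 skeletal muscle markers (Acta1, Ckm and Mb among them) were detected on all 6 arrays, as the tissue label implies. In aged mice 7 of them were lower, with a median log2 fold change of -0.21. Marker levels of some other cell types also differed between the groups. The summed signal of 5 erythrocyte genes, in multiples of the 75th percentile of the array, was 167 to 279 in young and 67.4 to 130 in aged mice, and the 4 of them tested were all lower in aged mice. That of 9 macrophage genes was 20.3 to 22.1 in young and 23.6 to 29.1 in aged mice (7 of 8 tested were higher, and 1 was detected on no array). That of 5 endothelial genes was 25.9 to 29.4 in young and 17.5 to 24.9 in aged mice, though only 3 of the 5 were lower and 2 were higher. Of 8 Schwann cell and myelin genes, 6 were lower in aged mice and 1 passed the threshold used below (median log2 fold change -0.85). Their summed signal overlapped, at 20.8 to 38.2 in young and 20.8 to 34.9 in aged mice. Of 6 adipocyte genes tested, 5 were lower. The summed signal of the adipocyte list also overlapped, at 123 to 132 in young and 93.4 to 124 in aged mice. Of 10 genes of the response to denervation, such as Chrng and Runx1, 8 were higher in aged mice, with a median log2 fold change of 1.71, while their summed signal was 514 to 674 in young and 456 to 656 in aged mice. No other gene of these lists passed the threshold. In a piece of muscle, fewer cells of a type and less RNA per cell cannot be told apart, and the part of these cells in the results below was not tested.

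On each array most lincRNA probes were not well above background in this muscle, although 59.7% to 74.4% of them met the looser call of a signal positive and significantly different from background. The share well above background was 33.0%, 31.1% and 30.8% in the young mice (numbered 1 to 3 in this order, here and throughout) and 37.1%, 29.9% and 31.3% in the aged mice. Aged mouse 1 was the highest, and the other aged mice lay within or just below the range of the young mice, so the groups overlapped. The mean share was 31.6% ± 1.20 (SD, n = 3) for young and 32.8% ± 3.86 (SD, n = 3) for aged mice, a difference of 1.17 percentage points (p = 0.8, exact two-sided permutation test, in which 3 mice against 3 cannot give a p below 0.1). Without aged mouse 1 the difference was -1.02 percentage points. On the same arrays NM probes were detected far more often: 65.9%, 64.8% and 64.5% in young and 68.0%, 64.3% and 65.4% in aged mice, a difference of 0.789 percentage points (p = 0.7, exact permutation test) that was -0.246 without aged mouse 1. The gap between both classes averaged 33.5 percentage points for young and 33.1 for aged mice, which the same exact permutation test did not separate (p = 1). Aged minus young, it was -0.384 percentage points, and 0.772 without aged mouse 1. These 3 tests and that of the level at equal brightness (below) made 4, and all 4 had a Benjamini-Hochberg adjusted p of 1.

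Detection varied little among the mice for most probes. Of the 16193 lincRNA probes, 3858 were detected on all 6 arrays and 8736 (53.9%) on none, against 59.8% and 26.9% of NM probes. A further 931 were detected on the array of aged mouse 1 alone, whereas each other array had 101 to 200 probes that it alone detected. For the tests between the groups a probe had to be detected on at least 3 of the 6 arrays, whichever they were. This left 5169 lincRNA probes (31.9%) and 17587 NM probes (65.8%).

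**Figure D1:**
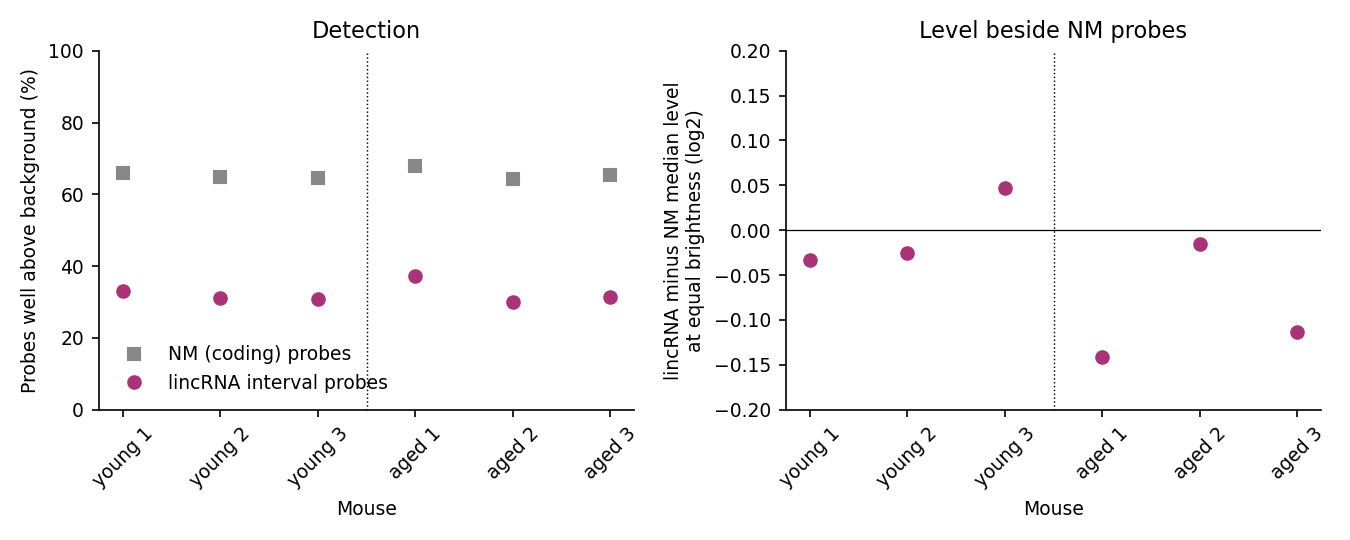
Left, share of probes (%) detected well above background on the array of each mouse, for lincRNA interval probes (circles) and NM probes (squares). Right, median level of lincRNA probes minus that of NM probes of the same brightness (log2) on each array; the dotted line separates young from aged mice. On the left aged mouse 1 is the highest at 37.1% for lincRNA probes, and on the right the 3 aged mice range from -0.14 to -0.02 and the 3 young mice from -0.03 to 0.05.

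Few lincRNA probes differed between young and aged mice. In limma, with Benjamini-Hochberg adjustment over all 28002 probes tested, 14 of the 5169 lincRNA probes had an adjusted p under 0.05 (0.271%), against 74 of all probes (0.264%) and 50 NM probes (0.284%). Of the 14, 9 were higher in aged mice (0.196% of all probes were) and 5 were lower (0.0679% of all probes). At an unadjusted p under 0.05 there were 731 lincRNA probes, 287 higher and 444 lower, or 14.1%, the same as the 14.1% of all probes. All 3 aged mice lay above all 3 young mice for 324 lincRNA probes (6.27%, against 7.44% of all probes) and below them for 709 (13.7%, against 14.3%). These shares lie near those of the whole array. The count of 14 moved when any 1 mouse was left out: to 49 for aged mouse 1 (15 higher and 34 lower), 5 for aged mouse 2, 1 for aged mouse 3, and 3, 4 and 6 for young mice 1, 2 and 3. With slide row as a block the age term compares aged mouse 1 alone with the 3 young mice, since row 2 held aged mice alone. Its count is therefore not given. After quantile normalization the split was 7 higher and 7 lower, and after scaling to the median of each array it was 4 higher and 5 lower.

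Of the 14 probes, 12 are named here and 2 on chromosome 18, both to 1 interval, are only counted. The 12 belong to 10 combinations of interval and strand. In 8 of the 12, the probe was detected in all mice of 1 group and none of the other, so only a lower bound of the fold is given. These 8 passed the filter only through the group in which they were bright, so their direction was given in advance. The bound sets the mean of the bright group against the faintest signal that was well above background on each array of the dim group, or against the signal of the probe itself where that was higher. It depends on the background correction. Under normexp with an offset of 50, a constant that lifts faint signals, the log2 differences of these 8 probes were smaller than their bounds, from 0.35 to 3.08 for the 5 higher and from -1.98 to -1.38 for the 3 lower in aged mice.

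**Figure D2:**
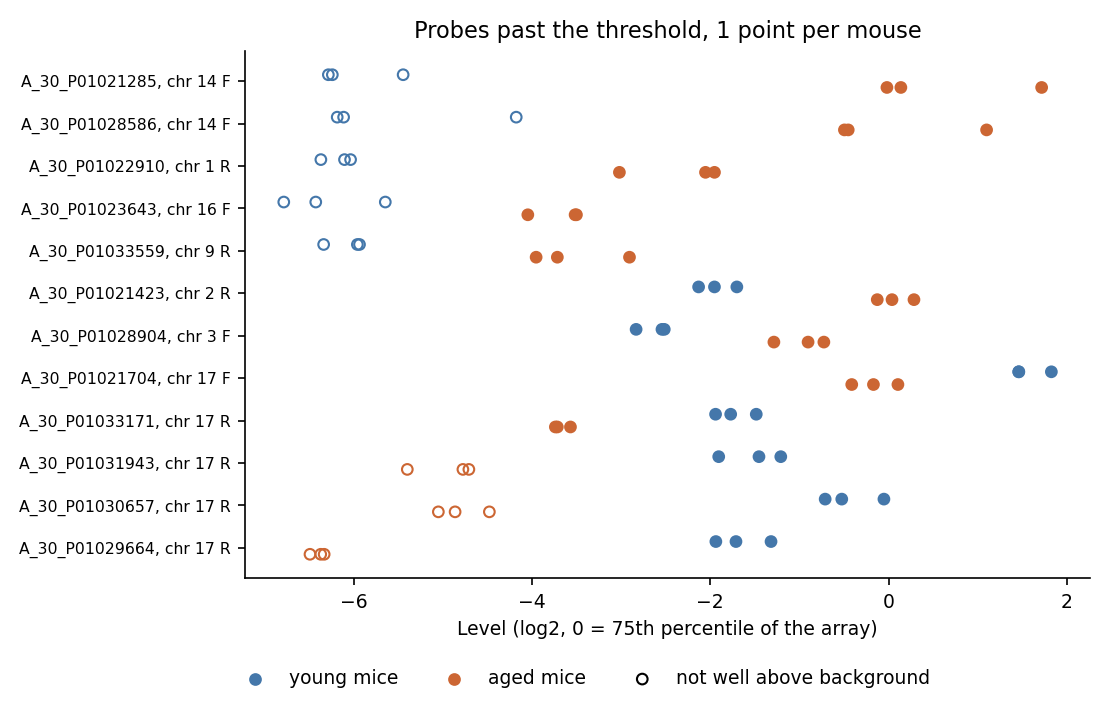
Level (log2, where 0 is the 75th percentile of the array) of the 12 named probes past the threshold in each young and each aged mouse, 1 point per mouse, ordered by their log2 fold change. Open points were not well above background. In no probe do the groups overlap. Where a group has open points the order sets no rank.

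The 4 neighbouring calls in 1 direction lay in a stretch of chromosome 17 (chr17:22332475-22472588) with 5 overlapping or adjoining intervals and 23 probes. Of its 12 probes tested, 11 were lower in aged mice and 9 had an unadjusted p under 0.05. The median log2 fold change was -1.50, or -1.39 with the 4 probes detected in young mice alone at their bounds. Those 4 passed the filter through the young mice, so their direction was given in advance. The 4 past the threshold were all to the R strand. Because their intervals overlap, they may read the same RNA and are not independent of each other.

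Probe A_30_P01029664 (chr17:22420025-22457650, R) was at -1.71, -1.94 and -1.32 in young animals and at -6.37, -6.33 and -6.49 in aged animals. Every young mouse was above background and no aged mouse was. The signal in aged mice was at least 5.70-fold lower (adjusted p = 0.00143 from limma). This was the only one of the 12 probes that kept its adjusted p under 0.05 in all 15 alternatives run for it, where it lay between 0.000904 and 0.0316. A neighbour to the same strand of the same interval, A_30_P01031943, was at -1.45, -1.91 and -1.21 in young and at -4.71, -5.40 and -4.78 in aged mice, at least 6.25-fold lower (adjusted p = 0.0120 from limma). It passed the threshold in 11 of 15 alternatives. The alternatives counted here and below include the series matrix values, which equal the main input and so only repeat the main result. They also include the slide row as a block, which compares aged mouse 1 alone with the young mice.

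Probe A_30_P01030657 belongs to a wider interval over the same ground (chr17:22335458-22466521, R). It was at -0.52, -0.71 and -0.05 in young and at -4.48, -5.05 and -4.86 in aged mice, at least 13.3-fold lower (adjusted p = 0.00495 from limma). Again no aged mouse was above background, and the call held in 14 of 15 alternatives. The fourth, A_30_P01033171 (chr17:22422837-22451777, R), was detected in every mouse, at -1.94, -1.77 and -1.48 in young and -3.57, -3.72 and -3.74 in aged mice, 0.260-fold (adjusted p = 0.0214 from limma, held in 7 of 16 alternatives).

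The other probes to this strand did not all follow the same pattern. The remaining probes of the wider interval, A_30_P01020914 and A_30_P01027624, were detected in all mice and had values of 0.292-fold and 0.326-fold (adjusted p = 0.0593 and 0.108 from limma), with no overlap between the groups. A_30_P01030119, to the same interval and strand as the first probe above, was at -1.35, -1.71 and -0.86 in young and -1.09, -0.42 and -0.66 in aged mice, with log2 fold change 0.58 (adjusted p = 0.410 from limma). So within this 1 interval and strand a pair of probes was detected in young mice alone, a neighbour was detected in every mouse with overlapping groups, and the other 2 of its 5 probes were detected in none. Probe sequences and genotypes were not used here, so a difference in RNA level and a difference in probe binding cannot be told apart at this interval. On the F strand of the interval, A_30_P01018656 and A_30_P01024662 had log2 fold changes of -0.26 and -0.23 (adjusted p = 0.539 and 0.645 from limma).

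Of the probes higher in aged mice, 2 belonged to the F strand of 1 interval of chromosome 14 (chr14:21029450-21049451). Probe A_30_P01021285 was at -5.45, -6.28 and -6.24 in young mice and at 1.72, 0.14 and -0.02 in aged mice. It was detected in every aged mouse and no young mouse, and was highest in aged mouse 1. The signal in aged mice was at least 28.6-fold higher (adjusted p = 0.00914 from limma), and the call held in 13 of 15 alternatives. Probe A_30_P01028586 was at -6.11, -4.18 and -6.19 in young and at 1.1, -0.45 and -0.50 in aged mice, at least 19.4-fold higher (adjusted p = 0.0362 from limma, held in 7 of 15 alternatives).

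All 5 F probes of this interval were tested and all 5 were higher in aged mice with an unadjusted p under 0.05, but over a wide range. Of the 5, 3 were detected in aged mice alone and passed the filter through them, so their direction was given in advance. Over the 7 probes tested at this locus, both strands together, the median log2 fold change was 2.01, or 1.73 with these 3 at their bounds. A_30_P01021478, the third of those detected in aged mice alone, was at -4.45, -5.51 and -4.59 in young and -2.01, -2.53 and -2.95 in aged mice (adjusted p = 0.0700 from limma). A_30_P01022115 was at -0.57, -0.68 and -0.49 in young and 2.39, 1.07 and 0.83 in aged mice (adjusted p = 0.137 from limma). Without aged mouse 1 the adjusted p of A_30_P01022115 was 0.0331 from limma. With slide row as a block, which compares aged mouse 1 alone with the young mice, its log2 fold change was 2.97. Row and age overlap, since row 2 held aged mice alone. A_30_P01019645 was at 1.21, 1.21 and 0.99 in young and 1.93, 1.68 and 1.33 in aged mice (adjusted p = 0.340 from limma). Of the 5 R probes, 2 were tested, with log2 fold changes of -0.26 and -0.23, and 3 were detected in no mouse.

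The other 6 named calls stood alone in their locus, where a locus joins intervals within 100 kb of each other. On chromosome 1, A_30_P01022910 (chr1:85304494-85305390, R) was at -6.37, -6.10 and -6.04 in young and -2.05, -3.02 and -1.95 in aged mice, detected in the aged mice alone and at least 3.68-fold higher there (adjusted p = 0.0125 from limma, held in 7 of 15 alternatives). Its neighbour A_30_P01030738 was also detected in the aged mice alone and passed the filter through them. It was at -4.23, -4.08 and -3.93 in young and -1.98, -3.29 and -1.94 in aged mice (adjusted p = 0.165 from limma). In both probes aged mouse 2 was the lowest of the aged mice, though still above every young mouse.

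On chromosome 2, A_30_P01021423 (chr2:181650800-181669350, R) was detected in every mouse, at -1.95, -1.70 and -2.13 in young and -0.13, 0.04 and 0.29 in aged mice, a 3.98-fold rise (limma, log2 fold change 1.99, standard error 0.20, adjusted p = 0.0254, held in 7 of 16 alternatives). Its neighbour on this strand, A_30_P01025538, was at -0.69, -0.78 and -0.60 in young but at -1.46, 0.54 and 0.37 in aged mice. There aged mouse 1 lay below and the other aged mice above the young mice (log2 fold change 0.51, adjusted p = 0.674 from limma).

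On chromosome 3, A_30_P01028904 (chr3:85783094-85783408, F) was at -2.83, -2.54 and -2.52 in young and -0.73, -1.29 and -0.90 in aged mice, a 3.16-fold rise (adjusted p = 0.0430 from limma, held in 6 of 16 alternatives). The interval is only 315 bases long, and its other 2 probes had log2 fold changes of 1.48 and 1.58 (adjusted p = 0.0697 and 0.0748 from limma). The 3 probes therefore gave much the same difference, and in each the groups did not overlap.

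On chromosome 17, apart from the stretch above, A_30_P01021704 (chr17:17342991-17343357, F) was at 1.46, 1.46 and 1.83 in young and -0.41, -0.17 and 0.11 in aged mice, 0.299-fold (adjusted p = 0.0362 from limma, held in 7 of 16 alternatives). It was the brightest of the 12 in young mice. The only other probe to this interval and strand, A_30_P01031699, was also detected in every mouse and lower in aged mice, with no overlap between the groups. The difference was smaller there, with a log2 fold change of -0.44 (adjusted p = 0.342 from limma), against -1.74 for A_30_P01021704. The faintest calls were A_30_P01033559 (chr9:68349343-68411643, R), at -5.94, -6.34 and -5.96 in young and -3.72, -3.95 and -2.91 in aged mice, and A_30_P01023643 (chr16:9158862-9162427, F), at -6.78, -5.65 and -6.43 in young and -4.05, -3.50 and -3.52 in aged mice. Both were detected in the aged mice alone, were at least 1.62-fold and 1.45-fold higher there (adjusted p = 0.0350 and 0.0430 from limma), and held in 4 of 16 alternatives each. Both passed the filter through the aged mice, so their direction was given in advance. After normexp their log2 fold changes were 0.35 and 0.40 (adjusted p = 0.359 and 0.314 from limma). Their intervals and strands had 8 probes on chromosome 9 and 3 on chromosome 16, and all the other probes were detected in no mouse.

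Detection in 1 group alone was rare. Among all 16193 lincRNA probes, 43 were detected in all aged and no young mice (0.266%, against 0.257% of all probes), and 53 in all young and no aged mice (0.327%, against 0.228%). NM probes gave 0.277% and 0.180%. Most were faint: the bound was at least 2-fold for 17 of the 43 and 7 of the 53. A_30_P01026877 (chrX:106029816-106082235, F), one of the 53, was at -3.21, -3.45 and -2.49 in young and -4.53, -5.60 and -5.67 in aged mice, at least 2.17-fold lower in aged mice, with a log2 fold change of -0.69 after normexp (adjusted p = 0.103 from limma, past the threshold in 3 of 15 alternatives, without aged mouse 1 among them).

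Some loci had no probe past the threshold but many with the same sign. They are shown because they hold a named probe, which is in their counts, and overlapping intervals may read 1 RNA, so the counts are a description. Over all lincRNA probes tested, 38.4% were higher in aged mice. At chr8:57977383-57999085 all 9 probes tested, from 5 intervals on the F strand, were higher in aged mice, 8 of them with an unadjusted p under 0.05, with a median log2 fold change of 1.36. The named probe there, A_30_P01025250 (chr8:57977383-57985712), was at -2.67, -1.91 and -2.77 in young and -0.50, -1.39 and -0.30 in aged mice (adjusted p = 0.149 from limma). At chr8:89996710-90061169, 5 of 6 probes were higher in aged mice with a median of 1.69 over the 6, and all 6 had an unadjusted p under 0.05. The F probes A_30_P01029453 and A_30_P01024770 were 4.31-fold and 4.28-fold (adjusted p = 0.143 and 0.169 from limma), and in both the young mice were spread widely, from -3.36 to -1.65 and from -2.06 to -0.04. The 1 probe that was lower was the only R probe tested there (log2 fold change -0.49). At chr15:61870759-62165018, 16 of 17 probes tested were higher in aged mice, 8 of them with an unadjusted p under 0.05. A_30_P01029551 (chr15:61984389-62102500, F) was at -3.77, -3.86 and -3.89 in young and -1.96, -2.23 and -1.02 in aged mice (4.30-fold, adjusted p = 0.0691 from limma).

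In the opposite direction, all 7 probes tested at chr1:69531191-69570566 were lower in aged mice, with a median log2 fold change of -1.25, and all 7 were to the R strand. A_30_P01027585 was at 0.78, 1.84 and 1.90 in young and 0.46, 0.19 and -0.54 in aged mice (0.361-fold, adjusted p = 0.207 from limma). At chr7:119735208-119822808 all 6 probes tested were lower, again all to the R strand, with a median of -1.19. A_30_P01019204 was at 3.24, 2.26 and 3.35 in young and 0.63, 1.84 and 1.81 in aged mice, and A_30_P01030901 at 2.37, 1.51 and 2.64 in young and -0.10, 0.99 and 1.05 in aged mice (0.348-fold and 0.346-fold, adjusted p = 0.225 and 0.213 from limma). In both, young mouse 2 was the lowest of the young mice and aged mouse 1 the lowest of the aged mice.

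The remaining probes in the naming rule lay in loci of mixed sign. A_30_P01026943 (chr17:45524689-45525320, R) was 3.43-fold (adjusted p = 0.183 from limma) while the other 2 probes tested in its locus were lower. A_30_P01030269 (chr11:95657291-95657772, R) was 3.25-fold (adjusted p = 0.153 from limma) in a locus where 27 of 35 probes tested were lower in aged mice. All 4 probes tested to the same strand of the interval around it were higher, like itself, with a median log2 fold change of 1.02. A_30_P01030384 (chr8:125031410-125075960, F) was at 0.56, 0.62 and 0.94 in young and 0.05, -1.34 and -2.12 in aged mice (0.279-fold, adjusted p = 0.222 from limma). The other 2 probes tested in its locus, both to the R strand, had log2 fold changes near 0. The other F probes there were detected on 1 or 2 arrays and not tested. Without aged mouse 1, which lay nearest to the young mice, the log2 fold change of A_30_P01030384 was -2.43 (adjusted p = 0.0331 from limma). With slide row as a block, which compares aged mouse 1 alone with the young mice, it was -0.66.

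**Figure D3:**
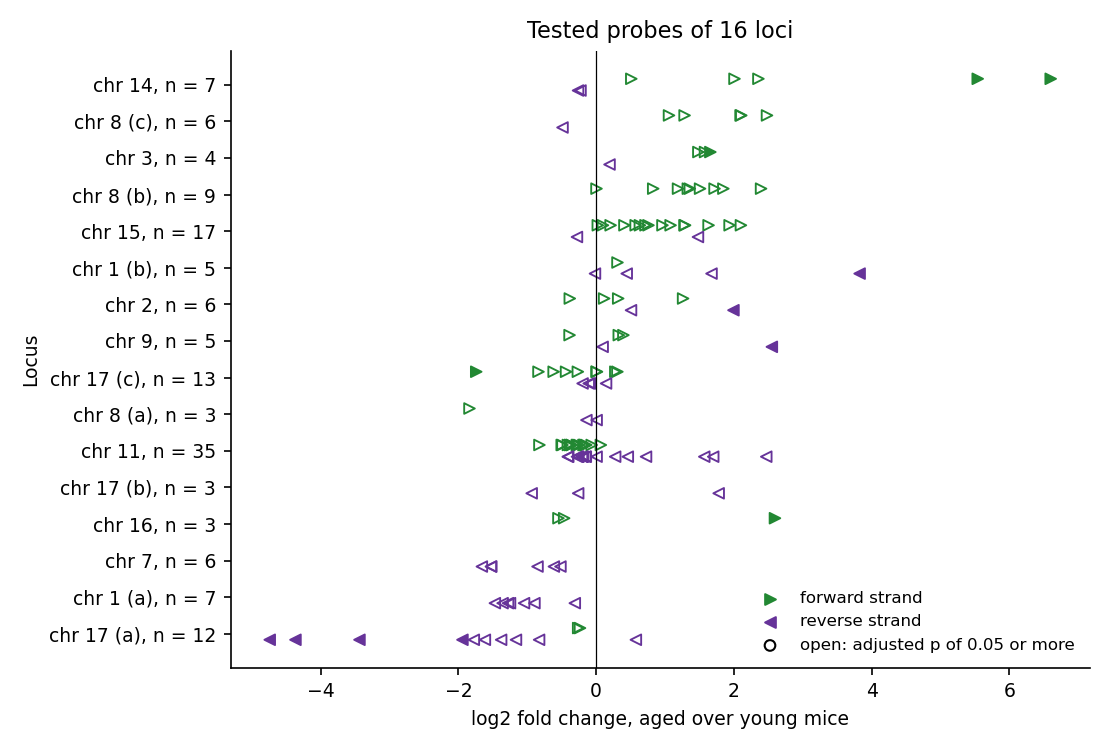
The log2 fold change (aged over young mice) of every tested lincRNA probe in 16 loci, ordered by the median of the locus. These loci hold a named probe past the threshold or among the 8 largest differences in each direction. Loci with only another named probe are not shown. Triangles to the right are F probes and to the left R probes, filled where the adjusted p from limma was under 0.05. Letters mark loci of 1 chromosome (chr 17 a, b and c start at bases 22332475, 45524689 and 17315025, chr 8 a, b and c at 125031410, 57977383 and 89996710, and chr 1 a and b at 69531191 and 85300475). The F and R probes of the chromosome 14 locus lie on opposite sides of 0, and 11 of 12 probes of chr 17 a lie below it. Values of probes dim in a whole group depend on faint signals and have no rank.

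The lincRNA probes were on the whole slightly lower in aged mice at this scaling. The median log2 fold change was -0.12 over the 5169 tested, -0.06 over the NM probes tested and -0.07 over all 28002, and 61.6% of the lincRNA probes were lower against 56.6% of NM probes. Over the 3858 lincRNA probes detected on all 6 arrays, a stricter filter, the median was -0.13. The size of this shift followed the scaling: with the median of each array in place of the 75th percentile it was -0.25 for lincRNA probes and -0.20 for all probes. The median of lincRNA probes minus that of all probes was -0.05 at the main scaling, -0.10 after quantile normalization and 0.02 with no filter on dim probes. It was -0.01 with slide row as a block, which compares aged mouse 1 alone with the young mice. With no such filter the median was 0.07 over all 16193 lincRNA probes and 0.05 over all probes, of the opposite sign.

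Brightness differed between the classes: 75.1% of the lincRNA probes detected on all arrays lay below the 75th percentile of the array, against 38.1% of the NM probes. Within bins of equal mean brightness, 1 log2 unit wide, lincRNA probes were nonetheless lower than NM probes in aged mice. In all 11 bins with at least 20 probes of each class the median log2 fold change of lincRNA probes was below that of NM probes, by 0.02 to 0.23. Averaged over these bins, the median level of lincRNA probes minus that of NM probes was -0.03, -0.03 and 0.05 in young mice and -0.14, -0.02 and -0.11 in aged mice. Aged mouse 2 lay above 2 of the young mice, so the groups overlapped. The difference between the groups was -0.09 (p = 0.3, exact two-sided permutation test), and -0.06 without aged mouse 1 or without young mouse 3. Within row 1 of the slide, with aged mouse 1 against the 3 young mice, it was -0.14. At this number of mice a shift of this size was not separable from the spread between mice.

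**Figure D4:**
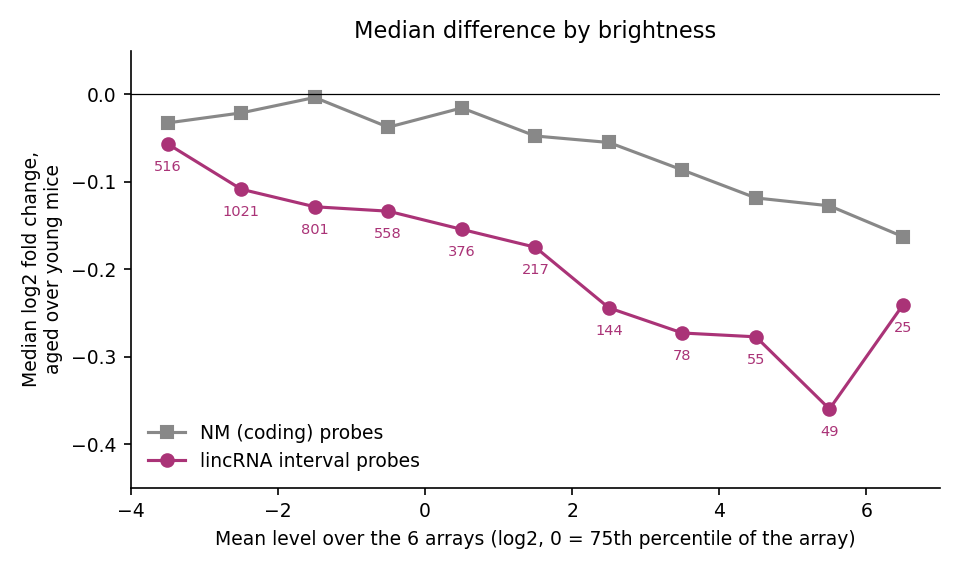
Median log2 fold change (aged over young mice) of probes detected on all 6 arrays, in bins of their mean level over the 6 arrays (log2, 1 unit wide), for lincRNA interval probes (circles, with the number of probes under each) and NM probes (squares). The lincRNA medians lie under the NM medians in all 11 bins, and both fall toward the bright end, to -0.36 for the 49 lincRNA probes at levels of 5 to 6.

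Of the lincRNA probes detected on all arrays, 4 had a mean level of 8 to 9 and 1 a level above 9, and none of these 5 passed the threshold. A_30_P01031754 (chr19:5801802-5802597, R) was at 8.92, 8.87 and 8.80 in young and 8.83, 9.31 and 9.42 in aged mice (1.25-fold, adjusted p = 0.504 from limma). With the slide row as a block, which compares aged mouse 1 alone with the young mice, its log2 fold change was -0.04. The aged mice of row 2 were its highest. A_30_P01018056 (chr2:168804720-168854970, R) was at 8.76, 9.14 and 9.17 in young and 8.69, 8.63 and 8.55 in aged mice, 0.758-fold with no overlap (adjusted p = 0.379 from limma). A_30_P01022075 and A_30_P01025369, both to chr17:17481706-17482457 on the R strand, were 0.928-fold and 0.940-fold, and A_30_P01031448 (chr14:78924115-78938125, F) was 0.891-fold (adjusted p = 0.799, 0.839 and 0.721 from limma). Other probes to the same interval and strand were also bright on chromosome 19 (mean levels of 6.89 and 5.59) and chromosome 17 (7.98). They were faint on chromosome 2 (-3.97 and -5.55, neither tested) and chromosome 14 (from -3.30 to -6.50). The direction of A_30_P01022075 and A_30_P01025369 turned under some settings given in the closing section.

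Probes to the same interval and strand often differed in whether they were detected, and a probe may lie outside the transcribed part of its interval. Of the 3920 combinations with at least 2 probes, 1633 had no probe tested, 1751 had some and 536 had all. Of the 147 with 10 probes, 20 had none tested and 9 had all, with a median of 3. Where exactly 2 probes were tested, 71.1% of 508 combinations had both log2 fold changes of the same sign, against 72.6% of 2687 NM accessions with exactly 2. The median SD of the log2 fold change among probes of 1 combination was 0.191, against 0.139 among probes of 1 NM accession and 0.551 over all lincRNA probes tested. With probes detected on all 6 arrays the first 2 values were 0.140 and 0.124.

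Both strands were probed for 1067 intervals. Both had a probe tested in 434 of them (40.7%), 1 had in 436 (40.9%) and none had in 197 (18.5%). Over the 434 intervals, the medians of the F and the R strand had the same sign in 258 (59.4%), and their correlation across intervals was weak (Pearson r = 0.134, Spearman rho = 0.139). Intervals are not independent replicates, and both medians come from the same 6 arrays. The strands differed by more than 1 on the log2 scale in 36 intervals, those of chromosomes 14 and 17 described above among them. R probes passed the filter somewhat more often than F probes (33.8% against 30.1%).

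**Figure D5:**
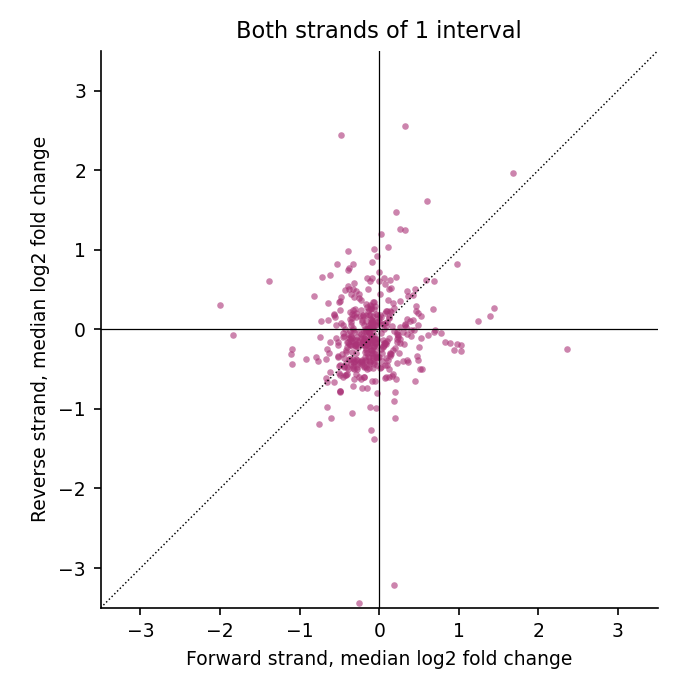
Median log2 fold change (aged over young mice) of the tested probes to the forward strand against that of the reverse strand, 1 point for each of the 434 intervals with both strands tested. The dotted line marks equal values. Points scatter around 0 with Pearson r = 0.134, and the farthest ones include probes dim in a whole group, whose size depends on faint signals.

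Detection varied by chromosome but little with length. The share tested ran from 21.6% on chromosome 9 to 41.6% on chromosome 19 and was 27.6% on the X chromosome, and no probe lay on the Y chromosome. In 4 equal classes of interval length it was between 30.9% and 32.8%. The median log2 fold change was below 0 on every chromosome, from -0.23 on chromosome 16 to -0.01 on chromosome 8. Grouped by their distance, the intervals formed 1576 loci, of which 9 held a probe past the threshold and 3 held more than 1.

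Annotated long noncoding RNAs on the same arrays are given beside the intervals, which were not matched to genes here. Of 40 listed, 25 had a probe, 23 were tested, 13 had a higher and 10 a lower mean in aged mice, 4 reached an unadjusted p under 0.05 and 0 passed the threshold in limma. Malat1, a nuclear RNA of splicing speckles, was at 2.77, 2.03 and 2.76 in young and 3.41, 3.73 and 4.10 in aged mice (2.34-fold, adjusted p = 0.165 from limma). Neat1, which builds paraspeckles, was at 6.92, 6.49 and 7.32 in young and 7.95, 7.42 and 7.93 in aged mice (1.82-fold, adjusted p = 0.254 from limma). In both the aged mice lay above the young mice. Meg3, an imprinted RNA expressed from the maternal allele, was at 2.10, 1.90 and 2.82 in young and 0.83, 1.62 and 1.65 in aged mice (0.533-fold), and Tug1 was at -0.39, -0.13 and -0.17 in young and -0.72, -0.55 and -0.79 in aged mice (0.730-fold), with adjusted p = 0.308 and 0.310 from limma. H19, an imprinted RNA and microRNA host, was the brightest of the list and did not separate the groups (1.13-fold, adjusted p = 0.780 from limma). Over all 403 probes to RefSeq long noncoding RNAs that were tested, 2 passed the threshold and the median log2 fold change was -0.13, close to that of the lincRNA intervals.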

How the data were processed

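The authors deposited the Agilent Feature Extraction output of each array, with the processed signal as a linear intensity after background subtraction and detrending, not scaled between arrays. The file headers give version 11.0.1.1 of the software and the submitters' processing notes 9.5. Of 62976 spots, 59305 were no controls. Flagged outlier spots were removed and spots of 1 probe averaged. The log2 of the deposited intensity minus the 75th percentile of the array was fitted by group with limma 3.58.1 (R 4.3.3, functions lmFit and eBayes, no covariates) for the 28002 probes detected above background on 3 or more arrays, with Benjamini-Hochberg adjustment. The fit was tested on simulated arrays. Single values per array were compared by exact permutation tests. Named were members with an adjusted p under 0.05, the 8 largest differences in each direction among probes detected on all arrays with groups apart, the 5 brightest, and the 4 with the smallest p in each direction among those detected in 1 group alone. Members and lists were chosen with earlier results of these data known. Intensities carry no counts, so the number of arrays limits the precision. The labels give 1 mouse per array. Alternatives covered background correction, normalization, scaling, filters, probe choice, a variance trend, the slide row, the replicate number, the series matrix values (the same as the processed signal) and each mouse left out. Probe sequences were not used here.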

Additional observations from a re-analysis of the deposited data

How the results depend on the processing

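The main setting gave 9 lincRNA probes higher and 5 lower in aged mice. Normexp background correction (offset 50) gave 5 higher, median scaling 4 higher, no filter 1 higher and 2 lower, probes detected on all 6 arrays 4 higher and 2 lower, and 1 probe per name 3 higher and 0 lower (53 of all probes still called in limma). The slide row as a block compares aged mouse 1 alone with the young mice, so its counts are not given. With the replicate number as a block (replicate block) there were 1 higher and 3 lower. The numbers did not pair the mice, since deviations from the group means correlated at -0.06, -0.28 and 0.02 between mice of the same number, so they are taken as mere names. Leaving out 1 mouse gave 0 to 15 higher and 1 to 34 lower, the largest without aged mouse 1 and the smallest without aged mouse 3. Over the lincRNA probes tested, the median log2 fold change was -0.25 with median scaling and 0.069 with no filter, and between -0.16 and -0.08 without 1 mouse. The detected share differed by -1.02 to 2.62 percentage points without 1 mouse, below 0 only without aged mouse 1. The level beside NM probes of equal brightness kept its sign in every setting run, from -0.12 to -0.06 without 1 mouse. Among the 31 named probes, the direction turned for A_30_P01031754 with the slide row as a block (-0.037), for A_30_P01022075 after quantile normalization (0.050), and for A_30_P01025369 after normexp (0.16), after quantile normalization (0.074) and without aged mouse 1 (0.0022, against as low as -0.17 without another mouse). The cause was not tested. Under the filter for all 6 arrays, probes detected in 1 group alone could not be fitted. With 3 mice a group, small shifts could not be separated from the spread between mice, and faint probes have a signal close to background.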
